A study of Mus musculus with 24 samples.

Results

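The genes described here are the alpha globins Hba-a1 and Hba-a2, the beta globins Hbb-bs and Hbb-bt, and Alas2, which encodes the erythroid form of the first enzyme of haem synthesis. These 5 genes, of 52353 to which transcripts could be assigned, were chosen by name from levels already seen in these libraries, per library and over the 4 genotypes, so their levels by genotype are a description and carry no test. All 5 passed the filter on low counts. RNA was sequenced from the frontal cortex of 24 mice, 6 for each of 4 littermate genotypes from a cross of Grn+/- mice, which have 1 working copy of the progranulin gene, with hTDP mice, which carry a human TDP-43 transgene. Each genotype had 3 females and 3 males. The Grn+/+:hTDP- mice were 9.44 to 10.79 months old, the Grn+/-:hTDP- mice 8.19 to 10.79 months, and both transgenic groups, Grn+/+:hTDP+ and Grn+/-:hTDP+, 9.44 to 10.07 months. All mice were anaesthetised with pentobarbital and perfused through the heart with 0.9% saline, and the frozen brains were thawed for dissection. The promoter that drives the transgene is not given in the sources used here.

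Haemoglobin is a tetramer of alpha and beta globin chains, each holding a haem group that binds oxygen, and in adult mice it makes up most of the protein of red cells. Globin and Alas2 transcripts are made in erythroid precursors of the bone marrow, and young circulating red cells still hold globin mRNA after losing their nucleus. Perfusion with saline removes blood from the vessels of the brain, and globin transcripts have also been described in neurons and glia. In bulk tissue, fewer cells of a type and less RNA per cell cannot be told apart.

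The alpha globin genes lie on chromosome 11 of GRCm38, Hba-a1 at chr11:32283511-32284465 and Hba-a2 at chr11:32296489-32297298, both on the forward strand. The beta globin genes lie on the reverse strand of chromosome 7, Hbb-bs at chr7:103826534-103828096 and Hbb-bt at chr7:103812524-103813996. Each globin gene has 3 exons, and Alas2, at chrX:150547375-150570638 on the forward strand, has 11. Within each pair the coding sequences are nearly the same, which bears on how far reads can be told apart between them. The alpha coding sequences, 426 bases each, differed at 1 base, C381T from Hba-a1 to Hba-a2, an identity of 99.8%. The beta coding sequences, 441 bases each, also differed at 1 base, C417T from Hbb-bs to Hbb-bt. Positions are counted from the A of the start codon, and the first base of each token belongs to the first gene named. The stretches around these differences, with the differing base in capitals, show how little separates the copies.
Hba-a1, coding bases 361 to 401: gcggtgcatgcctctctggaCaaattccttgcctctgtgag
Hba-a2, coding bases 361 to 401: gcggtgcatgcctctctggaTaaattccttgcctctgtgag
Hbb-bs, coding bases 397 to 437: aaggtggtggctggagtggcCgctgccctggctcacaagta
Hbb-bt, coding bases 397 to 437: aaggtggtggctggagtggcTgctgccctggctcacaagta
Over whole transcripts, 71.3% of the 31-base words of Hba-a1 and 91.0% of those of Hba-a2 also occurred in the other copy. For Hbb-bs the share was 66.9%, and for Hbb-bt 59.4%. Within the coding sequence alone the shares were 92.2% for both alpha globins and 93.9% for both beta globins. The split of reads within a pair is therefore an estimate, and it is uncertain for all 4 genes.

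The RefSeq promoter table of GRCm38.p6 gives the 250 bases before each RefSeq start, and these starts lie downstream of the GENCODE gene starts above. Of each 250-base window, 161 bases for Hba-a1, 168 for Hbb-bs, 73 for Hbb-bt and 42 for Alas2 lie inside the GENCODE gene. The part before the GENCODE gene is shown for these 4 genes because the members moved together across libraries, as described below. Capitals mark 5 motifs searched on both strands: AGATAA and TGATAA, which are forms of the site of GATA factors, with the CACCC box, then the CCAAT box and lastly the TATAA box.
Hba-a1, chr11:32283422-32283510, forward strand: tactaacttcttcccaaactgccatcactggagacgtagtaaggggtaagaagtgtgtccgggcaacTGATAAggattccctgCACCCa
Hbb-bs, chr7:103828097-103828178, reverse strand: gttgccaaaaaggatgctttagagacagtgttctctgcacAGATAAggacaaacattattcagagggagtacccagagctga
Hbb-bt, chr7:103813997-103814173, reverse strand: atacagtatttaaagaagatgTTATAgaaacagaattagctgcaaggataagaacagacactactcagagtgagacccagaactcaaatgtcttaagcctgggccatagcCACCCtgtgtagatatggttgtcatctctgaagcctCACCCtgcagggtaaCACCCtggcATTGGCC
Alas2, chrX:150547167-150547374, forward strand: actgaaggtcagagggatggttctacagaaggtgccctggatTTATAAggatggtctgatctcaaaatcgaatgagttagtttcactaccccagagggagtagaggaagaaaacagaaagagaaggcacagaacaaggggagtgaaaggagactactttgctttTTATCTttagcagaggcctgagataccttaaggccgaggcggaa
The last letters shown for Hbb-bt, CC, begin a motif that runs on into the gene. The 250-base window of Hba-a2 shares a run of 247 bases with that of Hba-a1 and is not printed, while the longest run shared by the 250-base Hbb-bs and Hbb-bt windows is 14 bases. Counted over the 250-base windows, TGATAA occurs once in each alpha window, AGATAA once in the windows of Hbb-bs and Alas2, and neither in that of Hbb-bt. CACCC occurs 2 times in each alpha window, 1 time for Hbb-bs and 3 times for Hbb-bt and Alas2. CCAAT occurs 1 time in each alpha window and for Hbb-bs, 3 times for Hbb-bt and 0 times for Alas2. TATAA occurs 1 time in each alpha window and for Hbb-bs, and 2 times for Hbb-bt and Alas2. The printed parts leave out the bases nearest the RefSeq starts, where some of these matches lie. Of 32851 promoter windows of the same length, 9.99% hold AGATAA, 7.94% TGATAA, 52.0% CACCC, 33.8% CCAAT and 22.8% TATAA. These are matches of letters and no measure of binding.

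Libraries held 61445842 to 100859149 estimated reads, with a median of 68728169. Markers of cortex were abundant in every library, with Snap25, a synaptic SNARE protein gene, at 2098 to 3174 TPM (a transcript abundance corrected for length and library depth) and Slc17a7, the vesicular glutamate transporter gene of excitatory neurons, at 1071 to 1397 TPM. The library of Grn+/+:hTDP+ replicate 2 stood apart, with 40188 transcripts above 0 against 65994 to 69846 in the others. The globin levels of its group and most correlations with Hbb-bs are given with and without it. So are the members' transgene differences in Grn+/+ mice and their Grn+/- differences with the transgene. The interaction, and the summed levels and median differences of the gene lists, are given only with it.

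Hbb-bs, the more abundant beta globin, was present in every library and spanned 16.3-fold between mice, from 19.7 to 322 TPM with a median of 48.9, which is 242 to 3769 reads. In Grn+/+:hTDP- mice the lowest, median and highest levels were 19.7, 44.0 and 74.0 TPM, and in Grn+/+:hTDP+ mice 39.3, 48.9 and 118.5 TPM. In Grn+/-:hTDP- mice they were 22.7, 40.2 and 322 TPM, and in Grn+/-:hTDP+ mice 28.4, 138 and 171 TPM. The ranges of all 4 groups overlapped, and each group held mice below 50 TPM. Above 100 TPM were 8 of the 24 libraries: 0 of 6 Grn+/+:hTDP- mice, 2 of 6 Grn+/+:hTDP+ mice, 2 of 6 Grn+/-:hTDP- mice and 4 of 6 Grn+/-:hTDP+ mice. The step from the 16 other libraries to these was from 74.0 to 116 TPM, and a larger step separated the highest library, Grn+/-:hTDP- replicate 4 at 322 TPM, from the next at 176 TPM. Both sexes were among the 8, with 5 of 12 females and 3 of 12 males.

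Without Grn+/+:hTDP+ replicate 2, the lowest, median and highest Hbb-bs levels of that group were 39.3, 48.5 and 116 TPM, and 1 of 5 mice lay above 100 TPM.

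The alpha globins showed the same order of magnitude and spread. The lowest, median and highest levels of Hba-a2 were 23.4, 46.5 and 70.6 TPM in Grn+/+:hTDP- mice, 36.2, 40.2 and 103 TPM in Grn+/+:hTDP+ mice, 24.8, 35.9 and 301 TPM in Grn+/-:hTDP- mice, and 25.7, 118 and 149 TPM in Grn+/-:hTDP+ mice. Those of Hba-a1 were 13.4, 25.1 and 42.4 TPM, then 24.2, 26.6 and 65.2 TPM, then 13.3, 21.9 and 197 TPM, and 16.9, 76.7 and 99.7 TPM in the same order of groups. In both genes Grn+/-:hTDP- replicate 4 was the highest library, and the ranges of the 4 groups overlapped. Without Grn+/+:hTDP+ replicate 2 the median of that group was 39.3 TPM for Hba-a2 and 26.2 TPM for Hba-a1.

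Hbb-bt, the minor beta globin, ranged from 2.57 to 36.8 TPM on 38 to 532 reads. Its lowest, median and highest levels were 2.57, 5.30 and 9.21 TPM in Grn+/+:hTDP- mice, 4.35, 5.52 and 11.1 TPM in Grn+/+:hTDP+ mice, 3.98, 5.02 and 36.8 TPM in Grn+/-:hTDP- mice, and 4.95, 15.4 and 23.3 TPM in Grn+/-:hTDP+ mice. The groups again overlapped, and without Grn+/+:hTDP+ replicate 2 the median of that group was 6.24 TPM. Alas2 was the least abundant member, at 0.0464 to 1.82 TPM on 3 to 79 reads, so counting error is large in its low libraries. Its lowest, median and highest levels were 0.0893, 0.191 and 0.604 TPM in Grn+/+:hTDP- mice, 0.165, 0.250 and 1.82 TPM in Grn+/+:hTDP+ mice, 0.0464, 0.313 and 1.27 TPM in Grn+/-:hTDP- mice, and 0.0796, 0.815 and 1.21 TPM in Grn+/-:hTDP+ mice, with overlapping ranges.

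The highest Alas2 value, 1.82 TPM in Grn+/+:hTDP+ replicate 2, came from 26 reads that were all assigned to a short noncoding transcript of the gene, with 0 reads on its coding transcripts. Counting coding transcripts alone, the highest Alas2 level was 1.27 TPM, in Grn+/-:hTDP- replicate 4, and that of Grn+/+:hTDP+ mice was 0.637 TPM, in replicate 5. The coding medians were 0.187, 0.202, 0.181 and 0.541 TPM in the 4 groups in the same order.

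**Figure D1:**
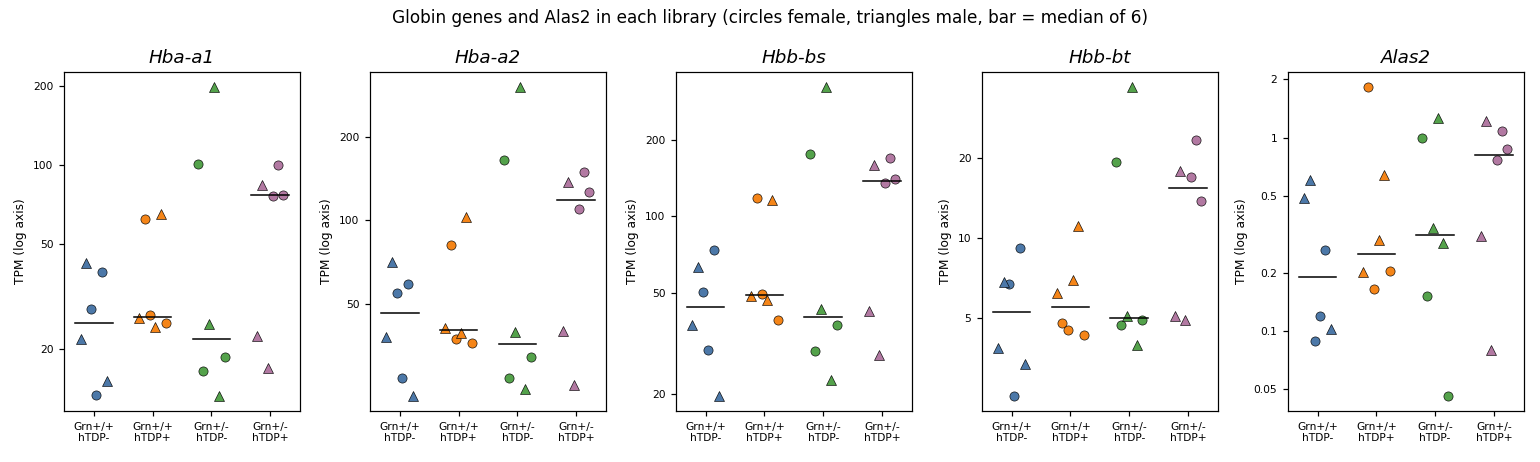
TPM (log axis) of each member in each of 24 libraries by genotype; circles are females, triangles males, and the bar is the median of 6. In each panel the 4 groups overlap, and the 8 libraries with Hbb-bs above 100 TPM hold 0 of the 6 Grn+/+:hTDP- mice.

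By mean level, Hbb-bs stood at 45.8 ± 20.6 TPM (SD, n = 6) in Grn+/+:hTDP-, 69.8 ± 37.1 in Grn+/+:hTDP+, 105 ± 121 in Grn+/-:hTDP- and 113 ± 61.4 TPM in Grn+/-:hTDP+ mice. Without replicate 2 the mean of Grn+/+:hTDP+ mice was 60.1 ± 31.8 TPM (SD, n = 5). Each step in this order was smaller than the larger SD of the neighbouring groups, and the same held for the other 4 members, with another order of groups for Hba-a2 and Alas2. Within groups the SD of log2 CPM (counts scaled by library size) was 1.09 for Hbb-bs, 1.09 for Hba-a1, 1.05 for Hba-a2 and 0.93 for Hbb-bt, against a median of 0.13 over 14216 genes with a mean of at least 1 CPM. Of those genes, 143 to 167 had a larger spread than a given globin. Mice of the same age also differed: the 9 mice of 9.44 months spanned 19.7 to 171 TPM of Hbb-bs, and the 9 of 10.07 months 28.4 to 159 TPM.

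In the edgeR fit over all genes, none of the 5 members was called at an adjusted p under 0.05 in any genotype comparison. Calls over 18239 genes were few: 0.0329% for the transgene in Grn+/+ mice, 0.0219% for the transgene in Grn+/- mice, 0.011% for Grn+/- against Grn+/+ without the transgene, 0.00548% for the same with it, and 0% for the interaction, where edgeR gave 434 genes at an unadjusted p under 0.05 and DESeq2 called 3. Nothing is read from the members' counts, since these contrasts were known when they were chosen. Grn+/- mice without the transgene had log2 differences from Grn+/+ mice of 1.27 (SE 0.60) for Hbb-bs, 1.28 for Hba-a1, 1.15 for Hba-a2, 1.23 for Hbb-bt and 1.26 for Alas2. These differences rested largely on 1 library: without Grn+/-:hTDP- replicate 4 they were 0.32, 0.31, 0.23, 0.43 and 0.61. That of Alas2 was 0.78 without Grn+/-:hTDP- replicate 1. With the transgene, the Grn+/- difference was 0.66 for Hbb-bs, 0.67 for Hba-a1, 0.78 for Hba-a2, 1.12 for Hbb-bt and 0.93 for Alas2, and without Grn+/+:hTDP+ replicate 2 it lay between 0.90 for Hbb-bs and 1.04 for Hbb-bt. With counts scaled from TPM it was 0.37 for Alas2. The transgene comparisons use the same libraries in other pairings, so the 4 comparisons are not independent.

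The transgene difference in Grn+/+ mice was 0.68 (SE 0.59) for Hbb-bs, 0.59 for Hba-a1, 0.37 for Hba-a2, 0.26 for Hbb-bt and 0.55 for Alas2 on the log2 scale. Without Grn+/+:hTDP+ replicate 2 it was 0.46, 0.37, 0.22, 0.34 and 0.53, and without Grn+/+:hTDP+ replicate 5 it was 0.40, 0.32, 0.06, 0.01 and 0.19. The small differences of Hba-a2 and Hbb-bt also moved by over 1.5 times with a Grn+/+:hTDP- mouse left out. That of Hba-a2 was 0.56 without replicate 2 and 0.24 without replicate 6, and that of Hbb-bt was 0.165 without replicate 1, 0.12 without replicate 4, 0.47 without replicate 5 and 0.14 without replicate 6. With counts scaled from TPM the difference of Alas2 was 1.03. In Grn+/- mice the transgene difference lay between -0.01 for Hba-a1 and 0.21 for Alas2, and without Grn+/-:hTDP- replicate 4 between 0.79 for Alas2 and 0.96 for Hbb-bs. Its sign changed in at least 1 other fit for each gene. The interaction ranged from -0.61 for Hbb-bs to -0.10 for Hbb-bt, and without that library from 0.23 for Alas2 to 0.57 for Hbb-bt. The direction of the interaction thus changed with 1 mouse in all 5 genes.

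**Figure D2:**
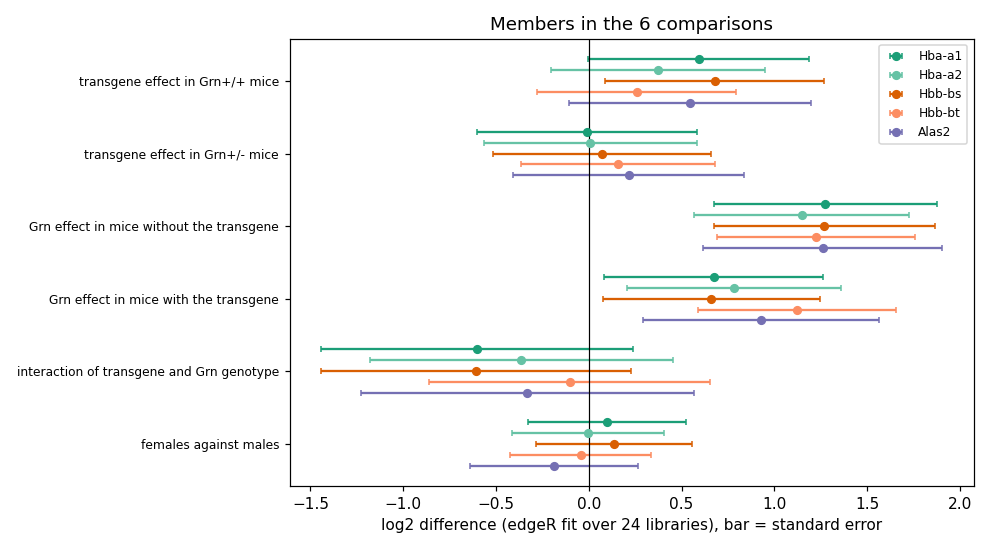
Log2 differences of the 5 members in the 6 edgeR comparisons; points are estimates and bars standard errors. The Grn differences without the transgene lie between 1.15 and 1.28, and the differences by sex near 0.

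Sex was not part of how the genes were chosen and was tested. Calls over all genes stood at 0.0713%, and 0 of the 5 members were among them. Females minus males gave a log2 difference of 0.14 (SE 0.42) for Hbb-bs, 0.10 for Hba-a1, -0.00 for Hba-a2, -0.04 for Hbb-bt and -0.19 for Alas2, with edgeR adjusted p from 0.969 to 0.999. The standard errors, 0.38 to 0.45, limit how small a difference by sex could be detected, and a p that misses the threshold does not show that the sexes were alike.

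The members varied together from mouse to mouse. Across the 24 libraries, log2 CPM of Hbb-bs correlated with that of Hba-a1 at a Pearson r of 0.991 and a Spearman rho of 0.989, with Hba-a2 at 0.987 and 0.968, with Hbb-bt at 0.919 and 0.876, and with Alas2 at 0.882 and 0.864. These values are a description with no test, since the genes were chosen from their levels per library. Over all 10 pairs of members r lay between 0.849 and 0.991. Alas2 has no near-identical copy among the globins, whereas Hbb-bs with Hbb-bt and Hba-a1 with Hba-a2 share reads. Without the 2 libraries farthest from the median the r of Hbb-bs was 0.987 with Hba-a1 and 0.837 with Alas2, and with values centred on group means 0.990 and 0.862. Without Grn+/+:hTDP+ replicate 2 it was 0.991 and 0.895. Since 8 libraries lay above the step at 100 TPM, r was also taken on each side of it: among those 8 it was 0.996 with Hba-a1 and 0.786 with Alas2, and among the other 16 it was 0.933 and 0.536. Over all 10 pairs, r lay between 0.786 and 0.996 among the 8 and between 0.348, for Hbb-bt with Alas2, and 0.935 among the 16. Alas2 also had its lowest read counts in these 16.

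**Figure D3:**
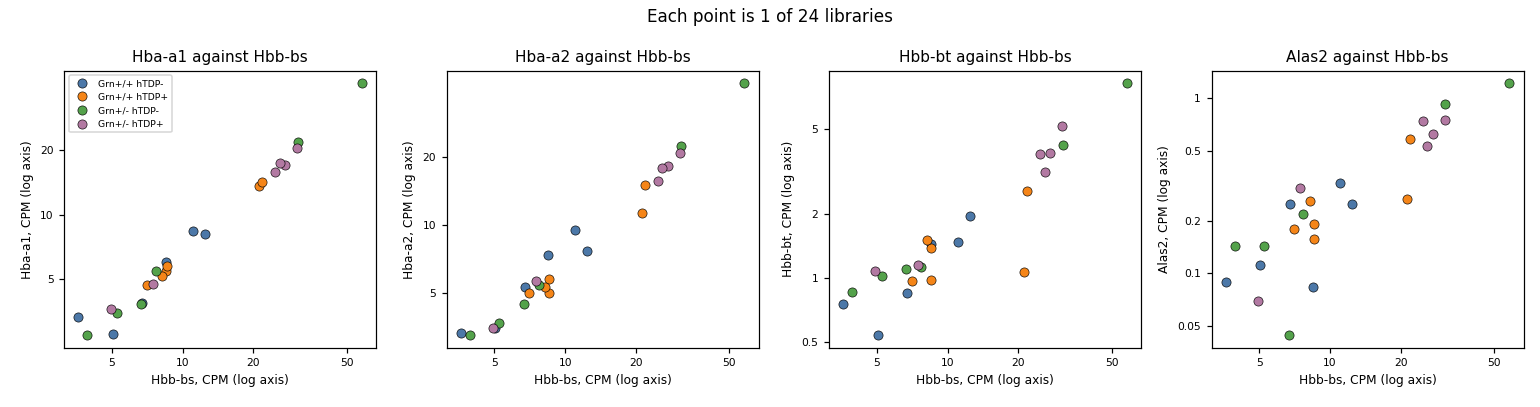
CPM of Hba-a1, Hba-a2, Hbb-bt and Alas2 against Hbb-bs, log axes, 1 point per library and colours by genotype. The points lie along a diagonal in each panel, tightest for the alpha globins; Grn+/+:hTDP+ replicate 2 lies below the diagonal for Hbb-bt.

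The make-up of the globin reads varied far less than their amount. Hba-a1 took 48.6% ± 2.79 (SD, n = 24) of the alpha globin reads, with a range of 42.4% to 54.7%. This includes reads on a noncoding transcript of Hba-a1, which held up to 21.8% of the gene's reads in a library, with a median of 2.21%. Alpha globin reads numbered 1.20 ± 0.11 (SD, n = 24) per beta globin read, with a range of 1.07 to 1.54. Hbb-bt took 13.0% ± 2.92 (SD, n = 24) of the beta globin reads. The lowest share of Hbb-bt was in Grn+/+:hTDP+ replicate 2, 104 of 2174 reads or 4.78% (Wilson 95% interval 3.96% to 5.76%, which covers counting error only), while the other 23 libraries lay between 9.65% and 17.95%, with a mean of 13.4% ± 2.39 (SD, n = 23). Per 1000 reads of Hbb-bs there were 24.3 ± 8.36 (SD, n = 24) reads of Alas2. None of 5 such ratios differed between females and males after adjustment (permutation tests of 12 against 12, two-sided, adjusted p from 0.149 to 0.317), the largest difference being that of Alas2 reads per 1000 Hbb-bs reads, 20.6 in females and 28.0 in males with an unadjusted permutation p of 0.0297. The females include Grn+/+:hTDP+ replicate 2, at 12.6 with all 26 Alas2 reads on a noncoding transcript. They also include Grn+/-:hTDP- replicate 6, at 6.68 on 3 reads, and Grn+/+:hTDP- replicate 3, at 9.87 on 6 reads. In males the lowest Alas2 count was also 6 reads. The tests by sex were not run without these libraries.

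**Figure D4:**
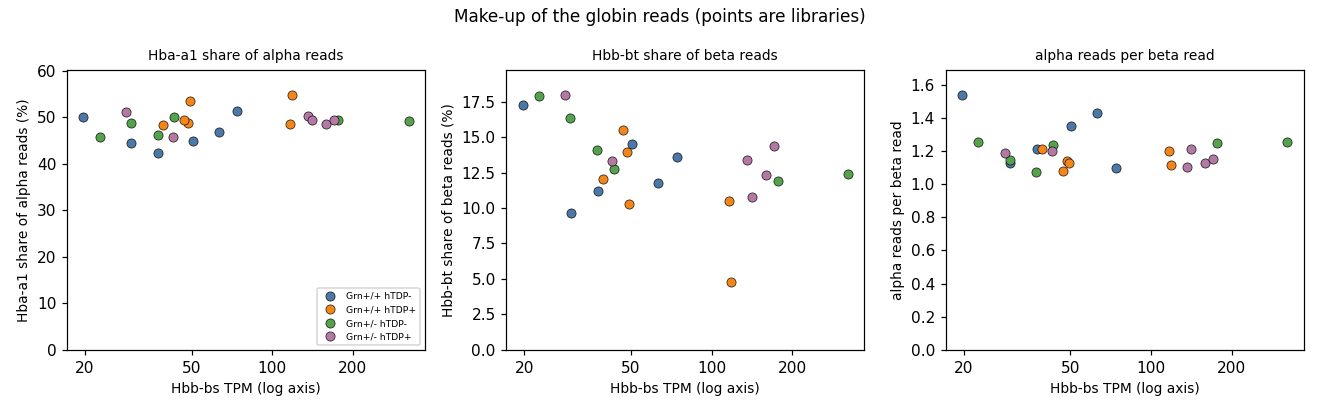
Share of Hba-a1 in alpha globin reads, share of Hbb-bt in beta globin reads and alpha reads per beta read against Hbb-bs TPM (log axis), 1 point per library. The shares stay in a narrow band while Hbb-bs spans 16.3-fold, and 1 library lies at 4.78% for Hbb-bt.

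Other globin genes that passed the filter had low correlations with Hbb-bs, the only member they were set beside. Of 12 on the list, 10 are in the files and 3 passed the filter: Cygb (cytoglobin) at 61.2 TPM, Ngb (neuroglobin) at 6.93 TPM and Hbq1a, a theta-like globin, at 1.61 TPM as means. None was called, but over all genes only 0% to 0.0713% were called by comparison, so this tells little about the 3 genes. Their r with Hbb-bs lay between -0.21 and 0.25, and between -0.10 and 0.24 without Grn+/+:hTDP+ replicate 2. The embryonic globins Hba-x, Hbb-bh0, Hbb-bh1 and Hbb-bh2 were listed at 0 in all 24 libraries.

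Genes of haem synthesis were expressed in every library. None of 14 was called in any comparison, beside 0% to 0.0713% of all genes by comparison. Alas1, the housekeeping counterpart of Alas2, had a mean of 99.5 TPM, Slc25a39, a mitochondrial carrier, 62.4 TPM, Urod, uroporphyrinogen decarboxylase, 55.1 TPM and Fech, ferrochelatase, 45.4 TPM. Alas1 and Hbb-bs had a Pearson r of -0.516 and a Spearman rho of -0.592. These and the values below are a description with no test, since Hbb-bs was chosen from its levels per library. With values centred on group means r was -0.46, and without the 2 libraries farthest from the median it was -0.61. On the 2 sides of the step at 100 TPM, r was 0.62 among 8 libraries and 0.06 among 16. This division is on Hbb-bs itself and narrows its range, so it cannot decide whether the relation holds within the sides. The other 9 measures set beside Hbb-bs, which were Pf4, S100a8, Cldn5, Rgs5, Dcn, Ttr, Hmox1, age and the log2 number of reads, had r between -0.09 and 0.38 with it. Without Grn+/+:hTDP+ replicate 2 their r ranged from -0.20 for the log2 number of reads to 0.51 for Hmox1, with S100a8 at 0.37 against 0.22 with that library, and Alas1 had an r of -0.504.

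Among red cell genes other than the members, Slc4a1, the band 3 anion exchanger of the red cell membrane, had a mean of 0.0455 TPM and was listed at 0 in 3 libraries. Abundant genes of that list, such as Car2 at 146 TPM, Tmcc2 at 126 TPM and Bnip3l at 98.6 TPM, are also expressed in brain cells. Of 31 list genes in the files, 19 passed the filter and none was called in any comparison. Over all genes 0% to 0.0713% were called by comparison, so the lack of calls in this list and the next tells little. The r of the 19 with Hbb-bs ranged from -0.37 to 0.46, and from -0.34 to 0.43 without Grn+/+:hTDP+ replicate 2. For clearance of haemoglobin and handling of iron, none of 18 was called, with Fth1 and Ftl1, the ferritin chains, at 3705 and 623.7 TPM. Hmox1, haem oxygenase, had an r of 0.38 with Hbb-bs, and 0.51 without Grn+/+:hTDP+ replicate 2.

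Markers of other blood cells and of vessels were measured beside the globins. Platelet genes numbered 5 of 10 that passed the filter, with summed levels of 6.95 to 11.8 TPM over all libraries and r with Hbb-bs from -0.26 to 0.23. Neutrophil genes, of which 6 of 12 passed, summed to means of 5.79 TPM in Grn+/+:hTDP- mice, 9.68 TPM in Grn+/+:hTDP+ mice, 7.28 TPM in Grn+/-:hTDP- mice and 12.8 TPM in Grn+/-:hTDP+ mice. The sums of single libraries ranged from 3.38 to 9.97 TPM, 7.26 to 16.4 TPM, 4.52 to 10.4 TPM and 8.39 to 18.6 TPM in that order. S100a8 was listed at 0 in 2 libraries, with means for S100a8 and S100a9 of 2.04 and 2.57 TPM, and the r of the 6 genes with Hbb-bs was 0.16 to 0.44. The median log2 difference of those 6 genes with the transgene was 0.86 in Grn+/+ mice and 0.87 in Grn+/- mice, beside medians near 0 over all genes. Lymphocyte genes had 6 of 14 that passed and r from -0.37 to 0.42, with median log2 transgene differences of 0.305 in Grn+/+ and 0.04 in Grn+/- mice. Of the 6, 4 and 3 lay above 0. The summed levels of the list were lower with the transgene, with overlapping ranges: means were 99.8 and 73.0 TPM in Grn+/+ mice without and with it. In Grn+/- mice they were 97.9 and 67.9 TPM. Trbc2, the most abundant gene of the list, had means of 66.3 and 40.4 TPM, then 60.6 and 38.9 TPM. Ighm, the next, had 29.1 and 24.5 TPM, then 30.5 and 21.3 TPM. The sum rests mostly on these genes, while Cd3e and Cd79a had means of 0.043 and 0.165 TPM over all libraries. Igkc, Cd79a and Jchain had higher mean TPM with the transgene in both Grn genotypes, as Igkc with 2.99 and 6.27 TPM in Grn+/+ mice. Whether the sum follows the number of lymphocytes was not tested. The 13 endothelial markers had r from -0.15 to 0.35, the 15 mural and meningeal markers from -0.14 to 0.38 (median log2 transgene difference 0.36 in Grn+/+ and 0.07 in Grn+/- mice), the 6 choroid plexus markers that passed from 0.03 to 0.31 and the 14 cortex markers from -0.46 to 0.35. The choroid plexus markers had median log2 transgene differences of 0.60 in Grn+/+ and 0.18 in Grn+/- mice, and a median Grn difference of -0.53 with the transgene. Without Grn+/+:hTDP+ replicate 2, the r with Hbb-bs ranged from -0.27 to 0.16 for platelet genes, 0.09 to 0.42 for neutrophil genes, -0.36 to 0.46 for lymphocyte genes, -0.13 to 0.43 for endothelial markers, -0.19 to 0.37 for mural and meningeal markers, -0.12 to 0.48 for choroid plexus markers and -0.43 to 0.41 for cortex markers. None of these genes was called in any comparison, beside 0% to 0.0713% of all genes by comparison, so the lack of calls tells little about them. The summed levels and median differences of these lists include Grn+/+:hTDP+ replicate 2. How far they rest on that library was not tested. The part that cells of these types play in the globin levels was not tested.

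**Figure D5:**
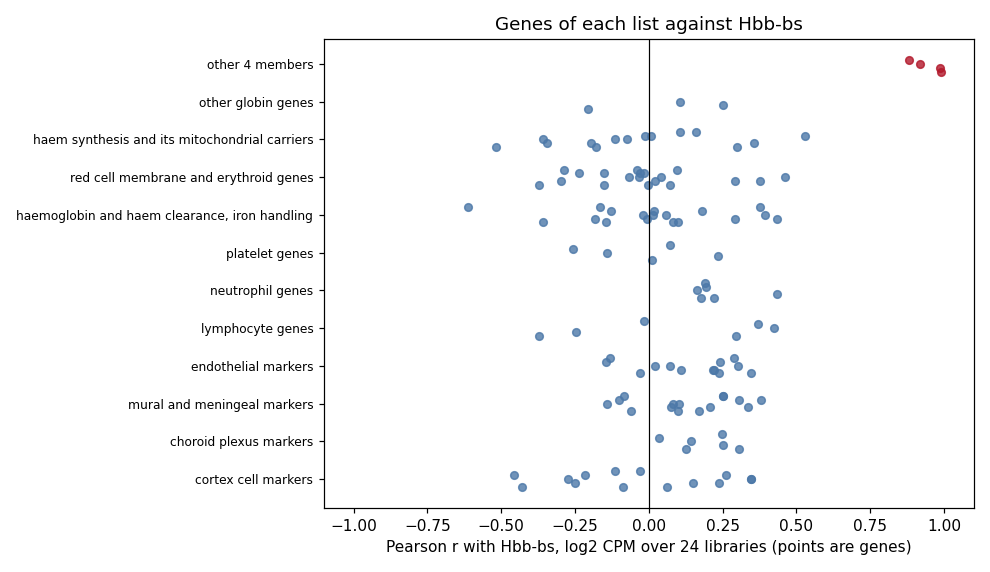
Pearson r with Hbb-bs (log2 CPM, 24 libraries) for the genes of each list that passed the filter. The other 4 members lie at 0.88 to 0.99, and the highest of the other listed genes lies at 0.53.

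Among all 14212 genes with a mean of at least 1 CPM outside the members, the highest r with Hbb-bs was 0.69, for Lyn, a Src-family kinase of blood and microglial cells, followed by Ctsc (0.67), a lysosomal protease, Tmem176b (0.66), Gadd45g (0.65) and Fam167a (0.65). With values centred on group means these were 0.64, 0.65, 0.60, 0.65 and 0.65, and without Grn+/+:hTDP+ replicate 2 they were 0.69, 0.68, 0.65, 0.70 and 0.63. None of these 14212 genes had an r above 0.8, 124 (0.872%) had one above 0.5, and the median was -0.01. Genes with a mean below 1 CPM were not ranked. Alas2 itself lies below that level, so genes as scarce as Alas2 were not searched. These are descriptions over 24 libraries and carry no p.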

How the data were processed

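Frontal cortex of 24 mice was profiled as poly-A selected RNA, with 1 library per mouse. Per the file headers, the deposited Salmon files give expected counts, which are fractional read estimates for each transcript, together with TPM and effective lengths. STAR, SAMtools, Salmon and DESeq2 are named in the submitters' processing notes, without versions; the sources used here give no build or annotation. The labels' protocols describe both a strand-keeping and a non-strand-keeping library, so which one was used is not clear.

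Transcript IDs without versions were looked up in GENCODE M21 (GRCm38), which placed 138032 of 149444 mouse and human transcripts; 11411 mouse transcripts were not placed and held 1.17% to 1.66% of reads. The deposited expected counts of a gene's transcripts were added, rounded, and tested with edgeR 4.0.16 (R 4.3.3), quasi-likelihood, TMM scaling, its default filter, and terms for genotype and sex; calls are Benjamini-Hochberg adjusted p under 0.05 over 18239 genes. DESeq2 1.42.0 was an alternative. Log2 CPM used a prior count of 1. Deposited TPM were summed per gene for levels. The permutation tests of the ratios by sex used 100000 permutations. Permutation p of the correlations between members and of Hbb-bs with other measures were also computed. They are left out because the members were chosen from their levels per library. The members, lists and rule for named genes (the members, up to 4 most abundant genes of each list, and the 5 most like Hbb-bs) were chosen with earlier results of these data known. The other settings tried were no filter, counts scaled from TPM, an age term, no sex term, summed globin copies and leaving out each library. Promoter windows are from the RefSeq table of GRCm38.p6, and coding sequences from the GENCODE transcripts. The coding-only level of Alas2, the division at 100 TPM of Hbb-bs and the values without Grn+/+:hTDP+ replicate 2 in levels and correlations were chosen after seeing the data. Some genes that the rule would name are not reported here. The fits were tested on simulated data.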

Additional observations from a re-analysis of the deposited data

Results flagged for a closer look

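The Alas2 level of 1.82 TPM in Grn+/+:hTDP+ replicate 2 lay far from the other 5 mice of its group: its gap to the nearest, divided by the range of the group, was 0.714, above the critical value of 0.625 for 6 samples. It came from reads on a noncoding transcript, as given above. Of 40 groups of 6 looked at, this was the 1 flagged. Chance alone flags about 1 in 20 where values are normal. The 40 groups share reads and include the levels from which the members were chosen, so that rate is only a rough guide and the flag is a description.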

How the results depend on the processing

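The number of genes called depended on the tool: DESeq2 called 29 for the transgene in Grn+/+ mice (edgeR 6), 10 for the transgene in Grn+/- mice (4), 6 for Grn without the transgene (2), 5 for Grn with it (1), 3 for the interaction (0) and 22 for sex (13). Without a filter the count was 2 for the transgene in Grn+/- mice and 0 for Grn with the transgene, with counts scaled from TPM 0 for the latter, and with an age term 2 for the transgene in Grn+/- mice and 0 for Grn without the transgene; the cause was not tested. Leaving out each library in turn gave 12 to 16 for sex, 0 to 3 for Grn without the transgene, 1 to 2 for Grn with it, 0 for the interaction, 2 to 4 for the transgene in Grn+/- mice and 4 to 7 for it in Grn+/+ mice. With counts scaled from TPM the sex difference of Hba-a2 was 0.0231. By library left out, the sex difference ranged from -0.056 to 0.56 for Hba-a1, -0.16 to 0.45 for Hba-a2, -0.0026 to 0.60 for Hbb-bs, -0.18 to 0.37 for Hbb-bt and -0.50 to 0.15 for Alas2. The r between members, given with no test, stayed positive under the settings chosen after seeing the data. The lowest was that of Hbb-bt with Alas2 among the 16 libraries below 100 TPM of Hbb-bs, as given above; the r of Hbb-bt with Alas2 was 0.69 with counts scaled from TPM, and leaving out each library gave 0.818 to 0.995 over the 10 pairs. No paired analysis was possible because the labels give mouse numbers but no replicate number shared between groups. Depth limits Alas2 (3 to 79 reads) most.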
